A study of Homo sapiens with 60 samples.

Results

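The mitochondrial ribosomal protein genes are the nuclear genes named MRPL or MRPS followed by a number. They were taken as the protein-coding entries of the deposited HepG2 count table with such a symbol, pseudogenes left out, which gave 78 of 60675 entries. Of these, 49 are named MRPL and 29 MRPS; 51 encode large-subunit proteins, 26 encode small-subunit proteins and MRPS36 belongs to neither. HepG2 is an established human liver cancer cell line. The cells were exposed for 24 h to an ethanol extract of 1 of 8 medicinal plants or plant formulas at 3 doses, or to the DMSO vehicle alone, and mRNA libraries made from total RNA gave 60 samples. Coptidis Rhizoma (2 libraries a dose) and Bupleuri Radix (3 a dose) were given at 11.2, 56 and 280 µg/mL, where 280 µg/mL is the dose that inhibited growth by 20%. Zizyphi Fructus (2 a dose), Citri Unshius Pericarpium (3), Cimicifugae Rhizoma (3), Aconiti Lateralis Radix Preparata (3), Yijung-tang (2) and Banhasasim-tang (1) were given at 20, 100 and 500 µg/mL. The vehicle group has 3 libraries, and the sources disagree on its DMSO content. The doses are called low, medium and high here, and each extract by the first word of its name.

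Mitochondria keep a small ribosome of their own, which translates the few proteins encoded in mitochondrial DNA, all of them parts of the respiratory chain and ATP synthase. Its RNAs, 12S (MT-RNR1) in the small subunit and 16S (MT-RNR2) in the large subunit, are transcribed from mitochondrial DNA. Its proteins are transcribed in the nucleus, made in the cytosol and imported, so the particle needs both genomes; some of the proteins descend from bacterial ribosomal proteins and others are found only in mitochondria. Liver cells are rich in mitochondria, and HepG2 cells are often used to ask whether a compound harms them.

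The libraries hold between 18015552 and 29549499 counts, of which the 78 genes took 0.327% to 0.597%. Levels are given as CPM, counts scaled to a common library size of 1000000 after correction by the trimmed mean of M values (TMM). All 78 genes passed the filter on low counts and were among the 16675 genes tested with edgeR's quasi-likelihood test; a gene is called higher or lower where the adjusted p is under 0.05. Nothing in the labels states that replicates came from separate cultures; each p-value rests on the spread between libraries alone, part of which may be technical. No extract shares the set name of the vehicle libraries, and against vehicle the set cannot be told apart from the treatment; the doses of an extract share a set name, as do Coptidis and Zizyphi. The batch letter is D for vehicle and every other extract, but for Coptidis and Zizyphi it is D in the titles and C in the descriptions, and which holds is not settled here. In bulk samples, fewer cells of a kind and less RNA per cell cannot be told apart. The HepG2 markers ALB, AFP, APOA1, SERPINA1 and TF were abundant in every library. Others on that list were lower: HNF4A ran from 314 to 637 CPM, FGB from 48.7 to 288 CPM and TTR from 13.1 to 70.5 CPM. Marker ranges are in CPM without the TMM correction. The leukocyte gene PTPRC had 0 counts throughout and the fibroblast gene COL1A2 had at most 1 count in a library. The endothelial gene PECAM1 (1.85 to 4.66 CPM) and the collagen gene COL1A1 (0.146 to 3.11 CPM) were detected at low levels; their part in the results was not tested. Replicate 3 of the Bupleuri low dose stood apart: 58 of the 78 genes were highest of all 60 libraries there. It also differed from its sister libraries over all genes, and the share of all genes highest there was not counted. Because all libraries share 1 estimate of the spread, counts of called genes are given with and without that library.

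The summed level of the 78 genes was lowest at the Coptidis high dose. It was 4325, 4374 and 4283 CPM in vehicle, 4023 and 4412 CPM at the Coptidis low dose, 3647 and 4066 CPM at the medium dose and 3492 and 3669 CPM at the high dose. The high-dose sum was 0.827 ± 0.0288 of the vehicle mean (SD, n = 2), with large-subunit genes at 0.796 and small-subunit genes at 0.890. Both high-dose libraries lay below every vehicle library, while the low-dose pair fell on either side of vehicle. In the 50 libraries that are neither Coptidis, Banhasasim-tang nor replicate 3 of the Bupleuri low dose, the sum ran only between 4156 and 4680 CPM, with a median of 4354 CPM. Replicate 3 of the Bupleuri low dose had 5890 CPM, against 4258 and 4326 CPM in its sister libraries.

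The mitochondrial rRNA share lay furthest from vehicle under Coptidis and in the single Banhasasim-tang libraries, for which no test was made, and the protein genes did not follow the same order of doses. MT-RNR1 and MT-RNR2 together took 2.61%, 2.47% and 2.49% of counts in vehicle, 11.8% and 11.6% at the Coptidis low dose, 10.2% and 11.5% at the medium dose and 5.41% and 5.68% at the high dose. The rRNA share was thus highest at the dose where the summed protein-gene level was nearest to vehicle, and it was closer to vehicle at the dose where that level was lowest. The 3 Aconiti high-dose libraries had 3.51%, 3.41% and 3.41%, the highest of the other replicated groups, with summed levels of 4332, 4355 and 4227 CPM that overlapped vehicle. Both rRNAs were also called higher at the high dose of Cimicifugae, Bupleuri, Aconiti and Yijung-tang, with median log2 fold changes of 0.42, 0.48, 0.59 and 0.49. The single Banhasasim-tang libraries had 0.485%, 8.01% and 11.8% at the low, medium and high dose, with sums of 3878, 4713 and 4434 CPM. What moved the rRNA share was not tested.

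**Figure D1:**
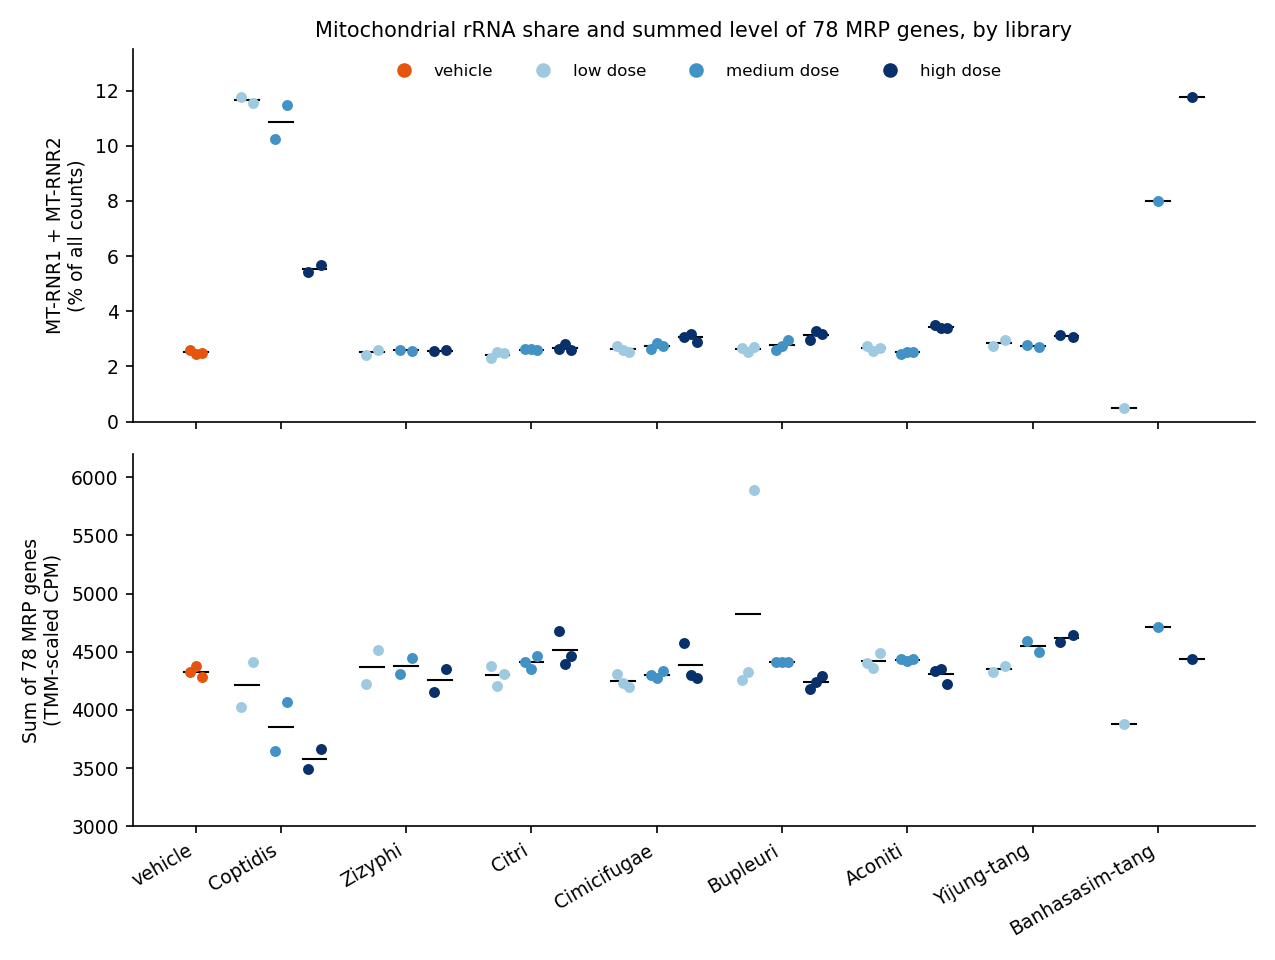
Share of mitochondrial rRNA in all counts (top, percent) and summed level of the 78 mitochondrial ribosomal protein genes (bottom, TMM-scaled CPM; the axis does not start at 0), 1 point a library and a bar at each group mean. The Coptidis rRNA shares lie between 5.41% and 11.8%, while the Coptidis sums lie between 3492 and 4412 CPM and are lowest at the high dose.

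Within vehicle cells the genes differed widely in level per kilobase of transcript. MRPL12, a stalk protein that also binds the mitochondrial RNA polymerase, stood highest at 114 ± 2.91 CPM per kb, followed by MRPL37 at 102 ± 2.40 and MRPL18 at 84.9 ± 1.48 CPM per kb (SD, n = 3). The lowest were MRPS11 at 7.21 ± 0.303, MRPS33 at 7.15 ± 0.397 and MRPL42 at 6.08 ± 0.149 CPM per kb. These 3 have long annotated transcripts of 3644, 4241 and 15582 bases, which lowers a value per kb where shorter isoforms are in use. MRPS11 and MRPS33 did not differ beyond their spread; the steps between the 3 highest genes exceeded theirs.

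Promoters are shown for 4 genes that the results below turn on: MRPL11 and MRPL17, 2 of the large-subunit genes that fell most under Coptidis, MRPL3, which was lower under 6 extracts, and MRPS10, a small-subunit gene that rose. Of the 78 genes, 69 have a promoter in the RefSeq table for GRCh38.p14, a window from 250 bases before to 50 bases after the annotated start. Some motifs known from genes for mitochondrial proteins were searched on both strands: GCGCNTGCGC, read by NRF1, CCGGAAGT, read by ETS factors such as GABPA, and AAGATGGCG, read by YY1. Capitals mark a match, each sequence runs 5′ to 3′ on the gene's strand, and no matches of different motifs overlapped.
MRPL11, chr11:66438799-66439098, minus strand, with none of the motifs: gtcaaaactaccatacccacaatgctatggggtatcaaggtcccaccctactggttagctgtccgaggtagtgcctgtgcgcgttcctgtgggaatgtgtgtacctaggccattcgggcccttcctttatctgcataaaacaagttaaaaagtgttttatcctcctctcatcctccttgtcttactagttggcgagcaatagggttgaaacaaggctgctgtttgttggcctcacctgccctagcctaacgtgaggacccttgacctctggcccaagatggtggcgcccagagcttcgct
MRPL17, chr11:6683291-6683590, minus strand, with an NRF1 motif: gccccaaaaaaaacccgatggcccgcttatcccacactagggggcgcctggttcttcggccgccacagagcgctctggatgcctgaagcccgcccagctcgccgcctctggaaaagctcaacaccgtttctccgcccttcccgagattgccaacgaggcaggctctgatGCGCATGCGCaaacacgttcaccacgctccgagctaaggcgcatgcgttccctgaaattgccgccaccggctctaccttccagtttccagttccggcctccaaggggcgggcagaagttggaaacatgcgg
MRPL3, chr3:131502922-131503221, minus strand, with an ETS motif: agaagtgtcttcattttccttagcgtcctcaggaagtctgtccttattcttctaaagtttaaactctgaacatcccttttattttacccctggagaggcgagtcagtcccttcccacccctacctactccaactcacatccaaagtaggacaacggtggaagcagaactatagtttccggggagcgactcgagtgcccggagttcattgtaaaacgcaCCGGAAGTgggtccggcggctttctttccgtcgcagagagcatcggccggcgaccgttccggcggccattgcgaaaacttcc
MRPS10, chr6:42217812-42218111, minus strand, with a YY1 motif: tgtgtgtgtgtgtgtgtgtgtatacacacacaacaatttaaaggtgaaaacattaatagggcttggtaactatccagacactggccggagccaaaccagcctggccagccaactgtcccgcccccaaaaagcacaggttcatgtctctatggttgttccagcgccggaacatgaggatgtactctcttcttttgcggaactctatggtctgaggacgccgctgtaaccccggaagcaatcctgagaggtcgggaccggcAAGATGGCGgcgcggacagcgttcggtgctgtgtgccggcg
The YY1 motif was in 13 of the 69 promoters (18.8%), against 1.85% of all 27305 promoters. The ETS motif was in 11 (15.9%), against 4.44% of all, and the NRF1 motif in 8 (11.6%), against 6.28% of all. Among the 39 matched genes called lower at the Coptidis high dose, 5 (12.8%) held the NRF1 motif, 7 (17.9%) the ETS motif and 5 (12.8%) the YY1 motif. Among the 30 matched genes not called lower there, 3 (10%), 4 (13.3%) and 8 (26.7%) did. These counts describe letters in a window; binding was not measured.

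At the Coptidis high dose, most mitochondrial ribosomal protein genes fell. Of the 78, 44 were lower and 7 higher than in vehicle, with a median log2 fold change of -0.34, while over all genes tested 67.5% were called, 34.4% higher and 33.1% lower, with a median of 0.00. The falls were modest for most: 20 genes fell by at least 1.5-fold, 1 rose by as much, and 64 of 78 estimates were below zero, in a range from -1.35 to 1.38. Changes of 1.5-fold were not counted over all genes. Of the 51 large-subunit genes 32 fell and 3 rose, with a median of -0.36; of the 26 small-subunit genes 12 fell and 4 rose, with a median of -0.19. Scaling by total counts in place of TMM gave 60 lower and 4 higher, with a median of -0.46 beside -0.11 for all genes. The counts were 51 lower and 10 higher without replicate 3 of the Bupleuri low dose, where 70.7% of all genes were called, 36% higher and 34.7% lower. Most genes tested were called at this dose; the called genes split 44 lower to 7 higher among the 78 and almost evenly among all genes. The Coptidis libraries also stood apart in how their log2 ratio to vehicle ran with transcript length over all genes: the slope for each doubling of length was 0.107 and 0.0758 at the high dose, against -0.0548 to 0.0106 in the 50 libraries of vehicle and the other replicated extracts, replicate 3 of the Bupleuri low dose left out. With GC and length offsets 46 of the 78 genes were lower and 12 higher. Without them, 22 of the 39 shorter genes were lower and 1 higher, and 22 of the 39 longer genes were lower and 6 higher.

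The genes that fell most encode large-subunit proteins. MRPL11 (ENSG00000174547; GRCh38 chr11:66435075-66466738, minus strand), a protein at the base of the stalk that recruits translation factors, had 23.2 and 22.9 CPM at the Coptidis high dose, against 59.5, 60.8 and 55.7 CPM in vehicle. It was 2.55-fold lower, a log2 fold change of -1.35 ± 0.11 (SE) with an adjusted p of 1.4e-14, and it was also lower at 38.6 and 37.5 CPM at the medium dose. PELI3, which shares exon bases with it on the other strand, was at only 2.42 CPM under Coptidis and 3.53 CPM in vehicle. MRPL1 (chr4:77862520-77952790, plus strand), which forms the mobile L1 stalk at the tRNA exit site, had 13.8 and 12.5 CPM at the high dose, against 31.5, 32.2 and 30.7 CPM in vehicle, a change of -1.26 ± 0.13 (adjusted p = 1.5e-11). MRPL17 (chr11:6680782-6683401, minus strand), a protein near the exit tunnel, had 17.1 and 18.3 CPM, against 35.8, 34.7 and 34.6 CPM in vehicle, a change of -0.98 ± 0.11 (adjusted p = 2.1e-10). In all 3 genes both high-dose libraries were far below every vehicle library and the 2 replicates lay close together.

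MRPL40, found only in mitochondria, had 19.8 and 20.9 CPM at the Coptidis high dose, against 38.6, 41.2 and 39.7 CPM in vehicle (-0.97 ± 0.10, adjusted p = 6.8e-12). MRPL30, the counterpart of bacterial L30, had 46.8 and 48.6 CPM, against 91.3, 93.1 and 85.2 CPM in vehicle (-0.91 ± 0.07, adjusted p = 6.9e-16). MRPL35, the counterpart of bacterial L35, had 38.8 and 40.04 CPM, against 72.3, 74.9 and 71.4 CPM in vehicle (-0.89 ± 0.06, adjusted p = 1.8e-17). None of these groups overlapped. MRPS25 and the pentatricopeptide repeat protein MRPS27 led the small subunit's falls: MRPS25 had 36.4 CPM on average, against 65.3 CPM in vehicle, and MRPS27 had 71.6 CPM, against 114 CPM in vehicle. The large-subunit genes MRPL18 and MRPL37, 2 of the most abundant in vehicle, also fell, by 0.73 and 0.47 on the log2 scale.

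A few genes rose against this background, 4 in the small and 3 in the large subunit, or 4 and 6 without replicate 3 of the Bupleuri low dose. MRPS6 (ENSG00000243927; chr21:34073224-34143034, plus strand), the small-subunit protein that pairs with an S18-type protein, had 49.0 and 50.1 CPM at the Coptidis high dose, against 19.2, 18.9 and 18.9 CPM in vehicle. It was 2.60-fold higher, a change of 1.38 ± 0.08 (adjusted p = 4.3e-19), and both high-dose libraries stood apart from all others. SLC5A3, the myo-inositol transporter gene that shares exons with MRPS6 on the same strand, was at 179 ± 1.51 CPM under Coptidis and 49.2 ± 1.39 CPM in vehicle, a change of 1.87 ± 0.13. How much of the MRPS6 count comes from reads shared with SLC5A3 was not tested.

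MRPS10 (chr6:42206801-42217865, minus strand), in the head of the small subunit, had 95.4 and 96.3 CPM, against 65.3, 64.9 and 62.6 CPM in vehicle (0.58 ± 0.05, adjusted p = 2e-13). MRPL10 (chr17:47823272-47831534, minus strand), which anchors the stalk, had 87.9 and 92.4 CPM, against 62.6, 60.03 and 63.6 CPM in vehicle (0.54 ± 0.05, adjusted p = 7.2e-12). MRPS30 (chr5:44808925-44820428, plus strand), which despite its name sits in the large subunit, had 72.0 and 77.9 CPM, against 58.6, 60.8 and 56.6 CPM in vehicle (0.35 ± 0.05, adjusted p = 6.1e-09). The groups did not overlap in any of the 3. The partners at the stalk therefore moved in opposite directions: MRPL10 rose while MRPL11 and MRPL12 fell. MRPS5, at the mRNA entry, and MRPL45, near the exit tunnel at the membrane, rose slightly, by 0.23 (adjusted p = 0.0024) and 0.19 (adjusted p = 0.004). Neither call held under total-count scaling, where they were at 0.12 and 0.07, or without Coptidis high replicate 3, where both were at 0.16.

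Genes whose names mislead, and paralogs, did not share a pattern. MRPS36, now placed in the oxoglutarate dehydrogenase complex, had 20.5 and 19.2 CPM at the Coptidis high dose, against 24.5, 25.0 and 24.5 CPM in vehicle, and did not pass the test (-0.31, adjusted p = 0.072). Of the 3 relatives of bacterial S18, MRPS18C fell, with 27.4 and 26.3 CPM, against 39.1, 41.8 and 36.2 CPM in vehicle (-0.54 ± 0.12, adjusted p = 0.00011). MRPS18A, a large-subunit protein, had 49.8 and 54.8 CPM, against 46.3, 46.0 and 51.5 CPM in vehicle, and MRPS18B had 92.8 and 93.7 CPM, against 90.1, 89.7 and 90.9 CPM in vehicle; neither passed (adjusted p = 0.13 and 0.46). ABRAXAS1, which shares exon bases with MRPS18C on the other strand, was higher by 0.58.

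**Figure D2:**
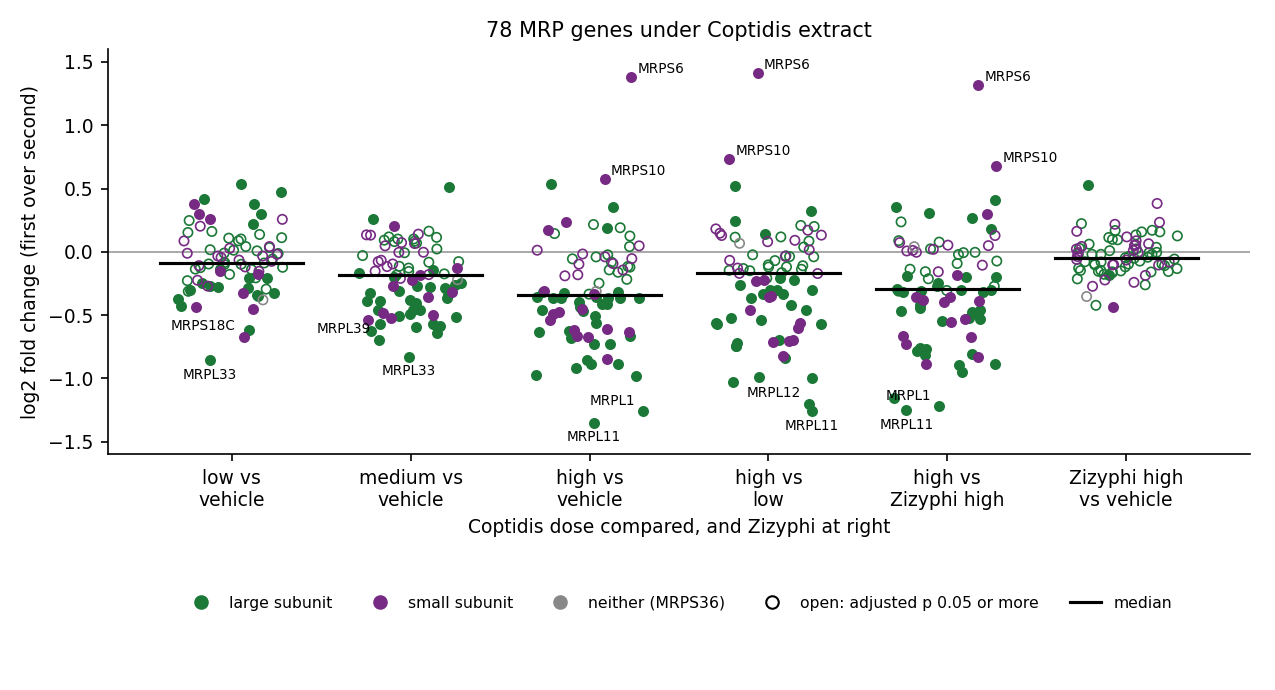
Log2 fold changes of the 78 genes in 6 comparisons, with the first-named group over the second; filled points have an adjusted p under 0.05, colours give the subunit and black lines the medians. The median is -0.09, -0.18 and -0.34 at the low, medium and high Coptidis dose against vehicle, and MRPS6 and MRPL11 lie at the extremes of the high dose.

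Across Coptidis doses the medians lay further below vehicle at each step in both subunits. At the low dose 21 genes were lower and 9 higher than in vehicle (median -0.09; 33.4% of all genes called, 17% higher and 16.4% lower), and at the medium dose 40 were lower and 3 higher (median -0.18; 50.8% of all genes called, 25.6% higher and 25.2% lower). The large-subunit median was -0.10, -0.26 and -0.36 at the low, medium and high dose, and the small-subunit median -0.05, -0.12 and -0.19. The 3 steps share the vehicle libraries. The counts lean on single libraries: without Coptidis medium replicate 2, 16 were lower and 4 higher at the medium dose, and without Coptidis low replicate 3, 14 were lower and 1 higher at the low dose. Without replicate 3 of the Bupleuri low dose, the medium dose had 43 lower and 5 higher (56.1% of all genes called), and the low dose 30 lower and 14 higher (40.3%). With total-count scaling the low dose had 39 lower and 5 higher and the medium dose 49 lower and 2 higher, while the medians of all genes moved to -0.13 and -0.10.

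The high dose set against the low dose of the same extract had 37 genes lower and 6 higher, with a median of -0.17 and 60.2% of all genes called, 31% higher and 29.3% lower. With offsets for GC content and transcript length, 13 were higher and 37 lower. MRPL12 (chr17:81703357-81707526, plus strand) changed direction between doses: it had 114, 118 and 119.6 CPM in vehicle, 147 and 193 CPM at the low dose, 127 and 128 CPM at the medium dose and 73.3 and 74.4 CPM at the high dose. It was higher than vehicle at the low dose (0.53 ± 0.12, adjusted p = 0.00071), did not pass at the medium dose and was lower at the high dose (-0.67 ± 0.13, adjusted p = 2.1e-05). High against low it fell by 1.20 on the log2 scale (adjusted p = 1.1e-09), and no groups overlapped. MRPL11 fell by 1.26 and MRPL1 by 1.03 in the same comparison, and MRPS6 and MRPS10 rose by 1.41 and 0.73.

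Other genes took other courses over the doses. MRPS6 changed at the high dose alone among the Coptidis steps, with 17.7 and 19.6 CPM at the low and 18.9 and 21.04 CPM at the medium dose. MRPS10 had 58.1 and 57.5 CPM at the low dose, where it was called lower than vehicle (-0.15, adjusted p = 0.022), and 70.8 and 77.5 CPM at the medium dose, where it was higher (0.21, adjusted p = 0.00097). MRPL10 was already higher at the low dose, at 78.2 and 88.2 CPM (0.42, adjusted p = 5.9e-08), and high against low it did not pass (0.12, adjusted p = 0.087). MRPL33, the counterpart of bacterial L33, went the other way: it had 38.4, 38.4 and 34.5 CPM in vehicle, 20.9 and 20.0 CPM at the low, 13.7 and 28.0 CPM at the medium and 25.4 and 33.5 CPM at the high dose. It was lower than vehicle at the low (-0.85) and medium dose (-0.83) and did not pass at the high dose (-0.33, adjusted p = 0.062). Its rise from the low to the high dose (0.52, adjusted p = 0.013) ended as a call without Coptidis high replicate 3 (0.29) or Coptidis low replicate 3 (0.48) and in a fit of those groups alone (0.50). MRPL33 shares exon bases with BABAM2 on the same strand.

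In the fixed panel, MRPL3, which reaches towards the peptidyl transferase centre, had 139, 137 and 138 CPM in vehicle, 114 and 115 CPM at the low dose, 92.8 and 108 CPM at the medium dose and 91.1 and 87.0 CPM at the high dose, and was lower at each dose (-0.27, -0.46 and -0.63). MRPS7, which binds 12S rRNA in the head, had 91.2, 92.4 and 87.4 CPM in vehicle, 84.7 and 94.9 CPM at the low dose, 75.2 and 84.3 CPM at the medium dose and 62.6 and 67.7 CPM at the high dose. It was lower only at the high dose among the Coptidis steps (-0.47 ± 0.08, adjusted p = 4e-06). MRPS12, at the decoding centre, had 34.7, 36.3 and 36.8 CPM in vehicle, 40.1 and 54.0 CPM at the low dose, 38.02 and 41.2 CPM at the medium dose and 31.5 and 31.9 CPM at the high dose. It was higher at the low dose (0.38, adjusted p = 0.0082) and did not pass at the high dose (-0.18, adjusted p = 0.18), so that high against low it fell by 0.56 (adjusted p = 0.00022).

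**Figure D3:**
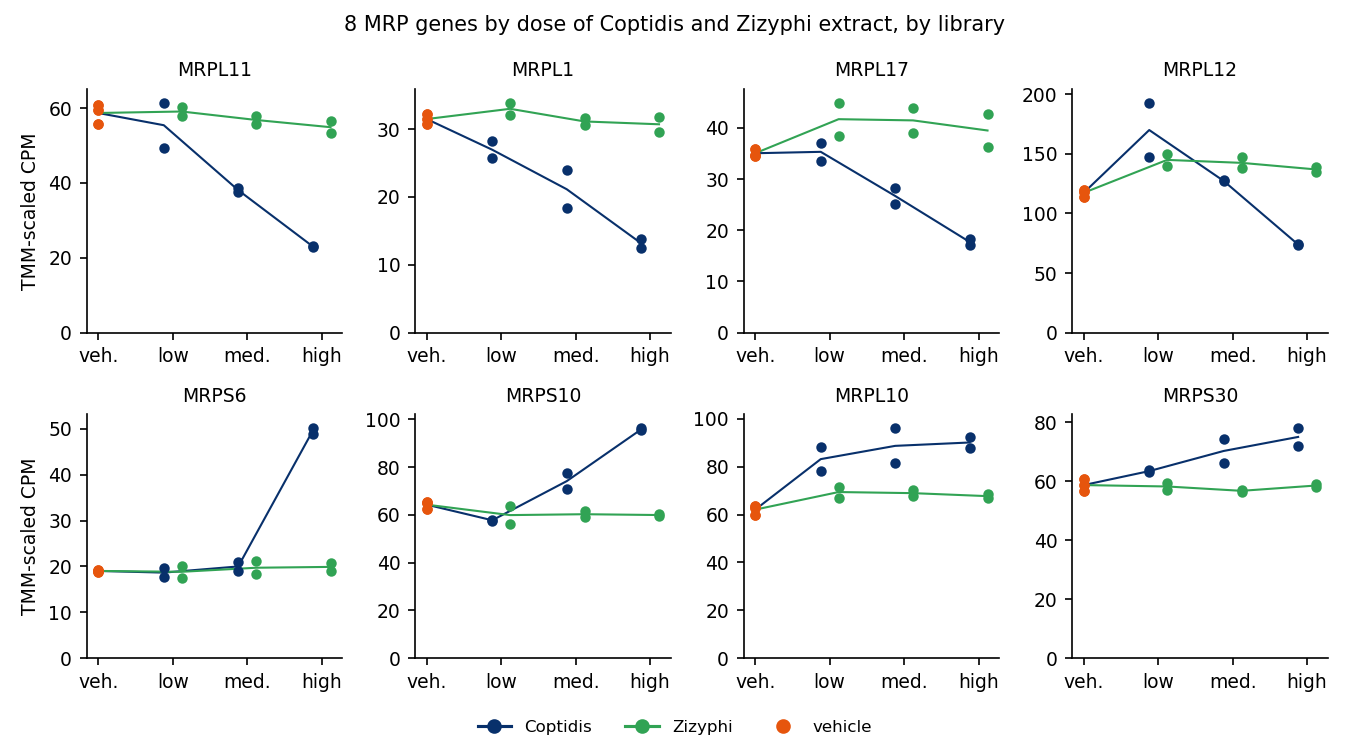
Levels of 8 genes (TMM-scaled CPM, axes from 0) in vehicle and at the low, medium and high step of Coptidis and Zizyphi, 1 point a library, with lines through the means. Under Coptidis MRPL11 ends at 23.2 and 22.9 CPM and MRPS6 at 49.0 and 50.1 CPM, while under Zizyphi neither leaves the range from vehicle by more than a few CPM.

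Zizyphi, whose libraries share a set name with Coptidis, gives a comparison free of the vehicle libraries, although its doses (20, 100 and 500 µg/mL) are not those of Coptidis. At the low step 7 genes were lower and 1 higher under Coptidis (median -0.09; 16.3% of all genes called, 8.85% higher and 7.5% lower). At the medium step 33 were lower and 4 higher (median -0.18; 44.6% of all called, 22.6% higher and 22% lower), and at the high step 44 were lower and 8 higher (median -0.30; 64.6% of all called, 32.8% higher and 31.8% lower). On leaving out replicate 3 of the Bupleuri low dose these were 18 and 4, 44 and 5, and 49 and 9, beside 24.1%, 50.5% and 68.3% of all genes called. Of the 44 genes lower than vehicle at the high dose and the 44 lower than Zizyphi, 41 were shared, but both comparisons use the same Coptidis libraries. MRPL11 had 23.2 and 22.9 CPM under Coptidis at the high step, against 56.5 and 53.2 CPM under Zizyphi (-1.25 ± 0.12, adjusted p = 9.6e-13), and MRPS6 had 49.0 and 50.1 CPM, against 19.0 and 20.8 CPM under Zizyphi (1.32 ± 0.09, adjusted p = 7.5e-17). MRPL17 was already 0.63 lower on the log2 scale at the medium step, with 25.1 and 28.3 CPM under Coptidis, against 38.9 and 44.0 CPM under Zizyphi. MRPL12, at 73.3 and 74.4 CPM under Coptidis against 135 and 139 CPM under Zizyphi, was lower at the high step (-0.89 ± 0.14, adjusted p = 5.4e-07).

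The smaller steps of that comparison were fragile. Without Coptidis medium replicate 2 the medium step had 18 lower and 5 higher, and the medium-step call of MRPL33 (-0.64) ended, at -0.21; it also ended without Zizyphi medium replicate 3 (-0.53). The low step had 0 lower and 4 higher without Coptidis low replicate 2, and no call without Coptidis low replicate 3 or Zizyphi low replicate 3. With total-count scaling the low step had 32 lower and 0 higher, with all genes at a median of -0.13, and with GC and length offsets 8 lower and 5 higher. At that step MRPL51 had 54.2 and 51.8 CPM under Coptidis, against 69.4 and 83.1 CPM under Zizyphi (-0.52, adjusted p = 0.015), MRPL33 had 20.9 and 20.0 CPM, against 28.9 and 33.4 CPM (-0.60, adjusted p = 0.016), and MRPS18C had 23.7 and 25.5 CPM, against 30.4 and 36.1 CPM (-0.43, adjusted p = 0.016). Each of these 3 calls ended without Coptidis low replicate 2, Coptidis low replicate 3 or Zizyphi low replicate 3. MRPL10, at 78.2 and 88.2 CPM under Coptidis against 71.7 and 67.1 CPM under Zizyphi, was higher (0.26, adjusted p = 0.0017); that call ended without Coptidis low replicate 3 (0.18) or Zizyphi low replicate 3 (0.22) and under total-count scaling (0.14).

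The rest of the mitochondrial translation machinery was mixed at the Coptidis high dose. Of 5 further ribosome proteins without an MRP name, 2 were higher and 3 lower than vehicle, among them the pentatricopeptide repeat protein PTCD3 at 103 CPM, against 149 CPM in vehicle (-0.54 ± 0.04), and DAP3 at 82.9 CPM, against 76.3 CPM in vehicle (0.12 ± 0.05). Of 26 assembly and rRNA-modification genes, 5 were higher and 11 lower (median -0.09). The helicase gene DHX30 was at 133 CPM, against 79.7 CPM in vehicle (0.73), and MTG2, a GTPase of large-subunit assembly, was higher by 0.33. MALSU1, a large-subunit assembly factor, was at 31.7 CPM, against 68.7 CPM in vehicle (-1.11), and MTERF4, which guides an rRNA methyltransferase, at 33.9 CPM, against 63.3 CPM in vehicle (-0.90). Of 16 translation factors and related genes, 4 were higher and 8 lower (median -0.14), from MTRF1L (0.33) and MTIF2 (0.15) to TSFM (-0.47) and the RNA-stability factor SLIRP, at 36.8 CPM, against 73.6 CPM in vehicle. These lists stand beside the same 67.5% of all genes called.

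Of 9 genes for factors known to act on such promoters, 3 were higher and 3 lower. ESRRA was at 49.1 CPM, against 23.3 CPM in vehicle, and MYC at 320 CPM, against 163 CPM in vehicle, while NRF1 was at 10.5 CPM, against 15.2 CPM in vehicle, and PPARGC1A at 15.2 CPM, against 22.2 CPM in vehicle. YY1 rose by 0.10 (adjusted p = 0.024). Most mRNAs that the mitochondrial ribosome translates fell at every Coptidis dose: of 13, 9, 11 and 12 were lower at the low, medium and high dose and none higher, with medians of -1.06, -0.75 and -0.64. Their median was thus lowest at the low dose, where the rRNA share was highest, but fewer were called there, and between the high and the low dose 6 were higher and 4 lower. MT-RNR1 and MT-RNR2 were higher at each dose, at the high dose by 2.09 and 0.98. Of the 8 HepG2 markers, 7 were lower and 1 was higher at the high dose. ALB, among the lower ones, was at 7581 CPM, against 10769 CPM in vehicle. How far a general change of the cells bears on the genes above was not tested.

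Under the other extracts the changes at the high dose were small. Zizyphi had 1 gene higher and 2 lower than vehicle, where 3.6% of all genes were called (2.25% higher and 1.35% lower). Citri had 13 higher and 3 lower (14.2% of all genes called, 7.68% higher and 6.53% lower), and Cimicifugae 10 and 5 (22.2%, 12.5% and 9.73%). Bupleuri had 7 higher and 14 lower (38.8% of all genes called, 20% higher and 18.8% lower), Aconiti 9 and 10 (23.2%, 11.2% and 12%) and Yijung-tang 15 and 1 (17.4%, 9.21% and 8.22%). The medians lay between -0.04 and 0.05, and all 6 comparisons share the vehicle libraries. The directions depended on the scaling in several: with GC and length offsets Cimicifugae had 6 higher and 10 lower, Aconiti 2 and 23, Citri 11 and 1 and Zizyphi 0 and 1, while with total-count scaling Aconiti had 12 higher and 5 lower and Bupleuri 5 and 18. The summed level was slightly higher under Yijung-tang, at 4586 and 4648 CPM, against 4325, 4374 and 4283 CPM in vehicle, a ratio of 1.07. Both values lay within the 4156 to 4680 CPM of the 50 libraries described above, which include them. The sum was not tested.

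Single libraries moved these counts too. Without replicate 3 of the Bupleuri low dose they were 4 higher and 12 lower for Zizyphi, 21 and 4 for Citri, 19 and 12 for Cimicifugae, 13 and 25 for Bupleuri, 13 and 21 for Aconiti and 20 and 2 for Yijung-tang. Over all genes the shares called were then 10.4%, 22.1%, 30.2%, 45.6%, 31.4% and 24.8% in the same order of extracts. The Zizyphi count was 0 without vehicle replicate 1 or either Zizyphi library, and 1 without vehicle replicate 2. The Citri count was 8 without vehicle replicate 1 or Citri replicate 1 and 9 without vehicle replicate 2. The Bupleuri count was 12 without vehicle replicate 1. For Aconiti, 10 calls were made without vehicle replicate 1 and 11 without vehicle replicate 2, and 10 to 12 on leaving out Aconiti replicate 1, 2 or 3. For Yijung-tang, leaving out its replicate 1 gave 10 and its replicate 2 gave 8. 

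At the 11 medium and low doses other than those of Coptidis and the Bupleuri low dose, 81 calls were made in all against vehicle, 55 higher and 26 lower. Without replicate 3 of the Bupleuri low dose there were 202. The share of all genes called at a dose then ran higher too, from 4.82% to 28.6%, against 1.68% to 20.9% with that library. Zizyphi had 1 gene higher and 0 lower at the medium dose (1.94% of all genes called, 1.24% higher and 0.696% lower) and 1 and 1 at the low dose (2.8%, 1.79% and 1.01%). Citri had 8 and 4 at the medium dose (10.6%, 5.66% and 4.91%) and 9 and 9 at the low dose (15.8%, 8.53% and 7.23%). Cimicifugae had 4 and 4 at the medium dose (10.7%, 5.67% and 5%) and 2 and 4 at the low dose (5.94%, 2.99% and 2.96%). Of these, the Citri low dose had the most calls and the Zizyphi medium dose the fewest. Bupleuri had 8 and 1 at the medium dose (10.9%, 5.45% and 5.44%), and Aconiti 8 and 1 at the medium (20.9%, 10.4% and 10.5%) and 7 and 1 at the low dose (9.85%, 5.69% and 4.17%). Yijung-tang had 6 and 0 at the medium dose (6.28%, 3.8% and 2.48%) and 1 and 1 at the low dose (1.68%, 1.23% and 0.45%).

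**Figure D4:**
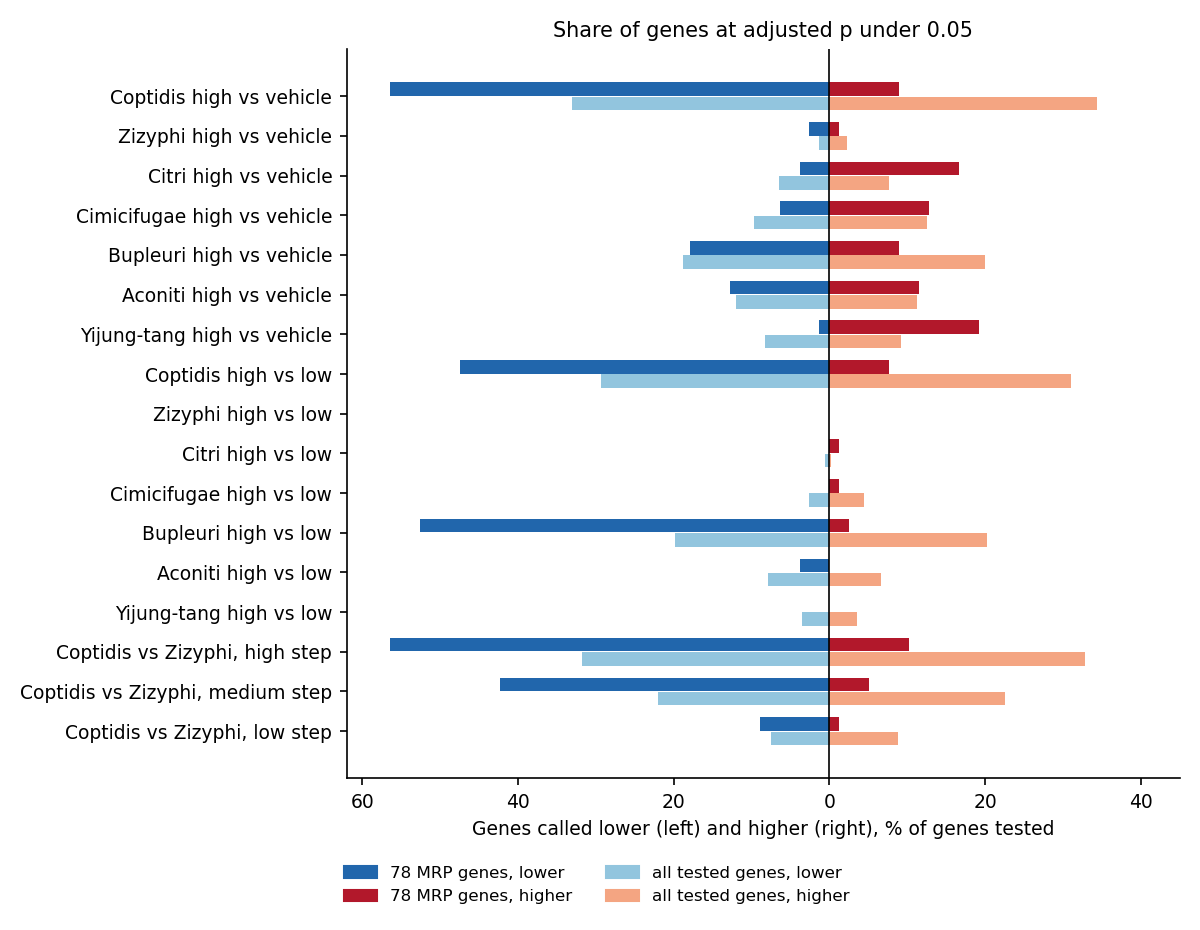
Share of the 78 genes (dark bars) and of all genes tested (light bars) called lower (left of 0) or higher (right of 0) at an adjusted p under 0.05 with TMM scaling, in percent of genes tested. The Coptidis comparisons other than the low step against Zizyphi, and Bupleuri high against low, have the longest dark bars on the left; the Bupleuri one shrinks to 8 genes without replicate 3 of its low dose.

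Several genes were called in the same direction under 4 or more of the 7 replicated extracts at the high dose, each time against the same 3 vehicle libraries. How many of all genes tested were called so was not counted, so these genes cannot be said to recur more often than others. Such calls were not confined to the high dose. Without replicate 3, the Bupleuri low dose had MRPL23, MRPL28, MRPS26 and MRPS34 among its 6 higher genes and MRPL3, MRPL19 and MRPS18C among its 6 lower, but not MRPS12, MRPS25 or MRPL39. The highest of the 78 estimates was 0.47, 0.52 and 0.52 at the low, medium and high Zizyphi dose, and 0.64, 0.60 and 0.65 for Citri. The values below are for the high dose. MRPL23 (chr11:1947278-1984522, plus strand), at the exit tunnel, was higher under 6 extracts and lower under Coptidis. It had 31.9 and 33.1 CPM under Zizyphi, 36.2, 33.7 and 36.5 under Citri, 35.6, 31.04 and 31.5 under Cimicifugae, 32.9, 30.9 and 34.3 under Bupleuri, 31.8, 32.3 and 30.8 under Aconiti, 35.4 and 40.5 under Yijung-tang and 14.1 and 20.8 under Coptidis, against 22.5, 23.4 and 21.8 CPM in vehicle. No extract overlapped vehicle; the log2 fold changes were 0.48 to 0.75 in the 6 and -0.37 under Coptidis. With GC and length offsets the calls under Zizyphi, Cimicifugae, Bupleuri and Aconiti ended, at 0.28, 0.16, 0.16 and 0.14, and the Zizyphi call also ended without vehicle replicate 1 or 3 or either Zizyphi library. MRPL23-AS1, on the other strand over shared exon bases, was at 2.48 CPM in vehicle, and the sources used here do not state whether the authors counted by strand.

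MRPS34, a mitochondria-specific small-subunit protein, was higher under 5 extracts and lower under Coptidis (35.5 and 39.4 CPM, log2 fold change -0.45). It had 77.2, 67.6 and 72.3 CPM under Citri, 73.0, 65.8 and 65.7 under Cimicifugae, 62.8, 66.8 and 70.7 under Bupleuri, 62.5, 65.2 and 64.4 under Aconiti and 69.9 and 72.3 under Yijung-tang, against 46.9, 55.1 and 51.5 CPM in vehicle. The rises were 0.32 to 0.50, and with GC and length offsets the calls under Cimicifugae (0.11) and Bupleuri (0.08) ended; Bupleuri's also ended in a fit of its own groups. MRPS12 was higher under the same 5 extracts, by 0.28 to 0.41. MRPS26, also mitochondria-specific, was higher under 4 and lower under Coptidis (48.0 and 53.9 CPM, log2 fold change -0.49), with 105, 91.1 and 99.0 CPM under Citri and 88.1, 97.5 and 88.1 CPM under Aconiti, against 65.2, 73.8 and 75.8 CPM in vehicle; the Aconiti call (0.35) ended with the offsets (0.11). MRPL28, the counterpart of bacterial L28, was higher under Citri, Cimicifugae, Bupleuri and Yijung-tang, by 0.19 to 0.33, and MRPS25 under Citri, Cimicifugae, Aconiti and Yijung-tang, by 0.15 to 0.20. MRPS25 thus fell under Coptidis and rose under those 4.

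MRPL3 was the gene most often lower. It had 121 and 121 CPM under Zizyphi (-0.19), 122, 127 and 127 under Citri (-0.14), 117, 116 and 114 under Cimicifugae (-0.25), 114, 113 and 114 under Bupleuri (-0.28) and 125, 121 and 119 under Aconiti (-0.18), against 139, 137 and 138 CPM in vehicle. With Coptidis that makes 6 extracts; under Yijung-tang it had 135 and 134 CPM and did not pass (-0.03, adjusted p = 0.70). The groups did not overlap. The Zizyphi and Citri calls (adjusted p = 0.021 and 0.024) ended with GC and length offsets (-0.09 and -0.04), without vehicle replicate 1 or 2 and without the low-count filter; the Citri call also ended without vehicle replicate 3 or Citri replicate 1, and the Zizyphi call without either Zizyphi library.

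MRPS18C was lower under 5 extracts, Coptidis included: it had 28.3 and 29.5 CPM under Zizyphi (-0.44), 32.4, 31.2 and 29.9 under Citri (-0.32), 32.3, 33.0 and 28.8 under Cimicifugae (-0.32) and 34.3, 31.1 and 31.4 under Aconiti (-0.27), against 39.1, 41.8 and 36.2 CPM in vehicle. The calls under Zizyphi, Citri, Cimicifugae and Aconiti all ended without vehicle replicate 1 or vehicle replicate 2. They also ended without either Zizyphi library, without any Citri library, without Cimicifugae replicate 3 and without Aconiti replicate 2 or 3. MRPL19, the counterpart of bacterial L19, was lower under Coptidis (-0.36), Bupleuri (-0.23), Aconiti (-0.20), Cimicifugae (-0.18) and Citri (-0.12). The Citri value (adjusted p = 0.046) ended as a call on leaving out any 1 of the 6 libraries and turned to 0.01 with GC and length offsets. MRPL39, mitochondria-specific, was lower under Coptidis (-0.56), Bupleuri (-0.40), Aconiti (-0.19) and Cimicifugae (-0.19); the Cimicifugae libraries, at 33.5, 30.4 and 31.1 CPM, overlapped vehicle, at 36.2, 39.4 and 32.5 CPM, and that call ended with offsets (-0.11), with total-count scaling and without vehicle replicate 1 or 2 or Cimicifugae replicate 2 or 3.

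**Figure D5:**
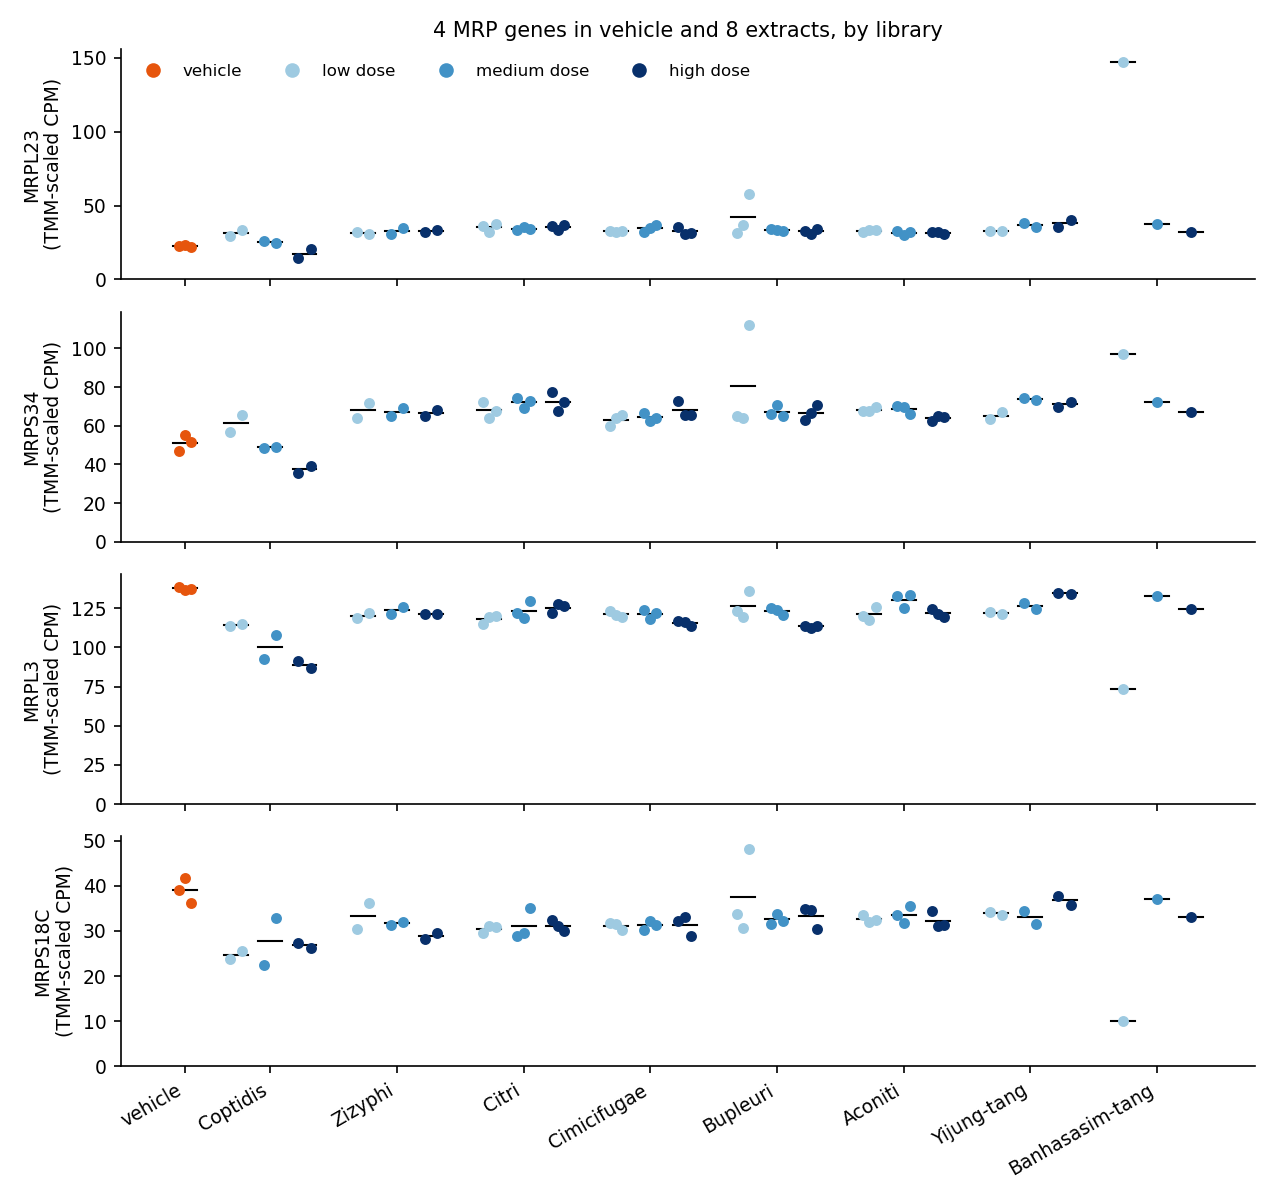
Levels of MRPL23, MRPS34, MRPL3 and MRPS18C (TMM-scaled CPM, axes from 0) in vehicle and at the 3 doses of 8 extracts, 1 point a library with a bar at each group mean. MRPL3 lies at 137 to 139 CPM in vehicle and at 87.0 and 91.1 CPM at the Coptidis high dose; the single Banhasasim-tang low-dose library and replicate 3 of the Bupleuri low dose stand out in several panels.

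The remaining genes chosen by size of change moved under one extract or a few. Under Bupleuri, MRPL16, the counterpart of bacterial L16, had 25.5, 25.9 and 27.5 CPM, against 35.8, 34.8 and 34.7 CPM in vehicle (-0.42 ± 0.08, adjusted p = 2.6e-05), and MRPL57 had 36.9, 39.2 and 39.3 CPM, against 47.3, 46.6 and 47.8 CPM in vehicle (-0.30, adjusted p = 0.004). MRPL54 had 15.6, 17.2 and 19.6 CPM, against 12.6, 13.2 and 13.8 CPM in vehicle (0.40, adjusted p = 0.014). In a fit of those groups alone the MRPL57 and MRPL54 calls ended; MRPL54's also ended with offsets (0.18) and without vehicle replicate 1 (0.37) or Bupleuri high replicate 3 (0.31). MRPL55, mitochondria-specific, had 32.2, 30.4 and 30.1 CPM under Cimicifugae and 28.5 and 32.0 CPM under Yijung-tang, against 21.4, 20.8 and 23.6 CPM in vehicle, and rose by 0.50 and 0.46; the Yijung-tang call ended without its replicate 2 (0.39). Yijung-tang's only lower gene was MRPL49, at 50.5 and 51.8 CPM, against 62.3, 60.3 and 57.5 CPM in vehicle (-0.23, adjusted p = 0.00046).

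Under Aconiti, MRPL41 had 48.7, 47.3 and 44.3 CPM, against 35.3, 37.7 and 38.8 CPM in vehicle (0.33 ± 0.12, adjusted p = 0.038), without overlap. With GC and length offsets that value turned to -0.18, and the call ended without any vehicle library or without Aconiti replicate 1 or 2 (0.29 to 0.36). MRPS28 had 18.6, 21.4 and 19.4 CPM, against 25.9, 25.0 and 23.5 CPM in vehicle (-0.33, adjusted p = 0.037), and MRPL48 had 17.1, 15.7 and 16.7 CPM, against 19.8, 20.9 and 19.7 CPM in vehicle (-0.29, adjusted p = 0.02). The MRPS28 call ended under total-count scaling (-0.30) and without vehicle replicate 1 or 2 or Aconiti replicate 1 or 3. The MRPL48 call ended without vehicle replicate 2 (-0.26) or Aconiti replicate 2 (-0.25).

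High against low dose within an extract gave few calls outside Coptidis and Bupleuri. Zizyphi had none, with 0 genes at an unadjusted p under 0.05 and 0 calls by DESeq2, where edgeR called 0.006% of all genes. Yijung-tang had none by edgeR (7.06% of all genes called), with 10 genes at an unadjusted p under 0.05 and 2 calls by DESeq2. Citri had 1 (0.792% of all called), MRPS30, with 61.2, 62.0 and 62.2 CPM at the high dose, against 54.99, 53.7 and 54.8 CPM at the low dose (0.18, adjusted p = 0.016); the call ended without any 1 of the 6 libraries. Cimicifugae had 1 (7.14% of all called), MRPS35, mitochondria-specific, with 97.9, 92.5 and 93.7 CPM at the high dose, against 86.2, 85.4 and 80.3 CPM at the low dose (0.17, adjusted p = 0.02); it ended without high replicate 1 (0.15) or low replicate 3 (0.14). Without replicate 3 of the Bupleuri low dose, Citri had 2, Cimicifugae 5 and Yijung-tang 7 genes higher and none lower, beside 2.16%, 12.5% and 12.1% of all genes called.

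Aconiti had 3 genes lower at the high dose than at the low dose and none higher (14.5% of all genes called). MRPL48 had 17.1, 15.7 and 16.7 CPM at the high dose, against 18.7, 18.1 and 23.2 CPM at the low dose (-0.28, adjusted p = 0.032). MRPS18A had 41.3, 42.3 and 41.8 CPM, against 48.7, 49.8 and 46.0 CPM at the low dose (-0.20, adjusted p = 0.026), and MRPS27 had 98.2, 95.1 and 100.3 CPM, against 105, 106 and 111 CPM at the low dose (-0.13, adjusted p = 0.0071). The groups did not overlap, but only 1 call was left without high replicate 1, 2 or 3 or low replicate 3. Without replicate 3 of the Bupleuri low dose there were 12 lower and 1 higher, beside 22.2% of all genes called. With GC and length offsets there were 13 in all.

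Bupleuri had 41 genes lower and 2 higher at the high dose than at the low dose (median -0.20; 40.2% of all genes called, 20.3% higher and 19.8% lower), and this rested on replicate 3 of the low dose. Without that library 8 were lower and 5 higher, with a median of -0.02, while 34.9% of all genes were called, 18.3% higher and 16.6% lower. MRPL16 had 25.5, 25.9 and 27.5 CPM at the high dose, against 33.0, 33.5 and 48.2 CPM at the low dose (-0.54, adjusted p = 2.3e-07). MRPL11 had 47.4, 47.9 and 52.1 CPM, against 58.2, 57.6 and 88.5 CPM at the low dose, and MRPL17 had 35.4, 34.9 and 37.6 CPM, against 42.5, 42.8 and 64.2 CPM at the low dose; both changed by -0.47. In all 3 the last low-dose library was far above its sisters, and all 3 were still called lower without it, with MRPL39, MRPL43, MRPL57, MRPS26 and MRPS27. MRPS30 had 62.0, 65.1 and 60.4 CPM at the high dose, against 56.0, 54.3 and 57.1 CPM at the low dose (0.16, adjusted p = 0.0013), and MRPS35 had 101, 101 and 102 CPM, against 86.4, 87.6 and 105 CPM at the low dose, with overlap (0.13, adjusted p = 0.034). The genes called higher without that library were MRPS10, MRPS30, MRPS35, MRPS5 and MRPS6; the MRPS35 call with all libraries ended without any one of the other libraries of the comparison. Without Bupleuri high replicate 2 the comparison had 27 lower and 1 higher.

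Against vehicle the Bupleuri low dose had 27 genes higher and 3 lower (median 0.13; 22.3% of all genes called, 11.8% higher and 10.4% lower). Without replicate 3 it had 6 and 6 (median -0.06), beside 12.5% of all genes called, 6.06% higher and 6.49% lower. Across all genes tested, the log2 ratio of that library to the vehicle mean had a slope of -0.251 for each doubling of transcript length, outside the range of -0.0548 to 0.107 in the other 59 libraries, whose upper end is Coptidis high replicate 2. The count was 18 without vehicle replicate 1 and 46 without Bupleuri low replicate 1.

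Whether the dose response differed between extracts was tested for pairs with matched replicate structure, as the difference of their high-minus-low changes. For Coptidis minus Zizyphi 31 of the 78 genes differed, 26 lower and 5 higher (49.3% of all genes called, 24.8% higher and 24.5% lower). On leaving out replicate 3 of the Bupleuri low dose, 37 were lower and 10 higher, beside 54.9% of all genes called. The differences ran from MRPL11 (-1.15 ± 0.16, adjusted p = 4.8e-08) and MRPL12 (-1.12 ± 0.19, adjusted p = 6e-06) to MRPS10 (0.73 ± 0.08, adjusted p = 2.7e-10) and MRPS6 (1.33 ± 0.14, adjusted p = 2.1e-11). The highest Coptidis dose is 280 µg/mL and the highest Zizyphi dose 500 µg/mL, so the steps match in rank and ratio but not in amount. For Cimicifugae minus Citri no gene differed by edgeR or DESeq2 (1.34% of all called; 3 at an unadjusted p under 0.05). For Bupleuri minus Aconiti 11 differed, all lower, led by MRPL27 (-0.48 ± 0.14) and MRPL16 (-0.44 ± 0.11). Over all genes 24.3% were called, 13.1% higher and 11.2% lower. Without replicate 3 of the Bupleuri low dose 4 did, 3 higher and 1 lower, beside 14.6% of all genes called higher and 11.5% lower. With GC and length offsets 5 were higher and 7 lower.

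Banhasasim-tang had a single library at each dose, so no test was made. A single library can lie outside the range of the vehicle libraries through scatter between libraries alone. The counts of genes below were not made over all genes, so they cannot be said to set these genes apart from others. At the high dose, where mitochondrial rRNA took 11.8% of counts as at the Coptidis low dose, the median log2 ratio to the vehicle mean was 0.00, with 33 genes above all vehicle libraries, 28 below and 17 within, and none changed by 1.5-fold. The largest ratios there were MRPL23 (0.52), MRPS12 (0.41) and MRPL55 (0.40), and the smallest MRPL49 (-0.32), MRPL39 (-0.27) and MRPS18C (-0.24). At the medium dose, with 8.01% rRNA, 50 genes were above vehicle, 8 below and 20 within, with a median of 0.07. The low-dose library stood apart from all others: 35 genes were lower and 11 higher by over 1.5-fold, from MRPS36 (-2.97) to MRPL23, which was at 147 CPM, against 22.5, 23.4 and 21.8 CPM in vehicle.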

How the data were processed

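RNA from 60 HepG2 libraries was measured by sequencing. The deposited table holds expected counts for each gene, estimated by the authors; the submitters' processing notes name RSEM 1.3.3, STAR 2.7.3a, Trim Galore 0.6.5 and FastQC 0.11.9, with build GRCh38. The annotation release and strand setting were not given in the sources used here. RSEM divides reads that map to several genes, and 36 of the 78 genes have pseudogene entries (80 in all); 16 share exon bases with a gene on the same strand and 29 with one on the other. In the table, 207 columns match no sample here and were not used. Groups came from the sample labels. Gene positions are from GENCODE 29.

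Expected counts were rounded (8.75% were not whole) and tested with edgeR 4.0.16 in R 4.3.3: TMM scaling, filterByExpr by group (16675 genes tested, 44000 left out), 1 coefficient for each of 22 replicated groups over 57 libraries, 35 residual degrees of freedom, a common biological coefficient of variation of 6.14%, and Benjamini-Hochberg adjustment over all genes tested in each comparison. Standard errors are the absolute log2 fold change over the square root of F. The common fit gives all groups the same trend of the spread. It was tested on simulated counts that gave every library the same spread, so that test does not cover groups of unequal spread. All replicate pairs differed by more than sampling noise, by unlike amounts. Their squared differences over sampling noise were 2.17 to 3.46 in vehicle and 9.44, 21.5 and 4.91 at the Coptidis low, medium and high dose. For replicate 3 of the Bupleuri low dose against its sister libraries they were 106 and 112. Depths of 18015552 to 29549499 counts leave counting error small for the more abundant of these genes. It weighs more for the least abundant, such as MRPL54 at 13.2 CPM in vehicle.

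Named are the 6 largest rises and falls called at the Coptidis high dose, up to 3 each way in the other comparisons, genes called the same way under 4 or more extracts, a panel (MRPL3, MRPL12, MRPS7, MRPS12), the extremes in vehicle, and genes with misleading names or S18 relatives, at 5 CPM or more. Others named (MRPS25, MRPS27, MRPL18, MRPL37 under Coptidis, and the lists without one large library) were chosen after their values were seen. Members and lists were chosen with earlier results of these data known. Alternatives were DESeq2 1.42.0, RLE and total-count scaling, removal of mitochondrial rRNA, no filter, a replicate block, GC and length offsets (splines with 4 degrees of freedom), separate fits and leaving out each library; the differences between extracts, the length split and overlapping genes were added after seeing the data.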

Additional observations from a re-analysis of the deposited data

Results flagged for a closer look

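For 2 pairs of extracts the change from low to high dose differed for some of the 78 genes by a test of the difference itself. In each pair the share of the 78 genes called was smaller than that of all genes tested. Between Coptidis and Zizyphi 31 of the 78 genes differed, 26 of them lower and 5 higher under Coptidis. Over all genes 49.3% differed, 24.8% higher and 24.5% lower. MRPL11 (-1.15), MRPL12 (-1.12) and MRPS6 (1.33) lay at the ends. Between Bupleuri and Aconiti 11 genes differed, all lower under Bupleuri, where 24.3% of all genes differed, 13.1% higher and 11.2% lower. There were 4, 3 of them higher and 1 lower, beside 26.1% of all genes without replicate 3 of the Bupleuri low dose. In that library 58 of the 78 genes were highest, a count not made over all genes.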

How the results depend on the processing

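Of 75 gene and comparison pairs, 623 of 675 values under alternatives other than leaving out a library kept direction and side of the threshold, 48 lost the call and 4 turned: MRPL19 under Citri (0.0076 with GC and length offsets, 0.0074 with the block added) and MRPL41 under Aconiti (-0.177 and -0.178). Leaving out a library kept 295 of 387 and ended 92. All 44 genes lower at the Coptidis high dose were lower with DESeq2, RLE, total-count scaling, rRNA removal, no filter, the replicate block (44 lower, 7 higher) and a separate fit, and 41 with offsets. Same-numbered libraries showed little common deviation, with correlations from -0.0509 to 0.136, under 0.1 but for Zizyphi high and low. Where both groups have 2 libraries, the 2 pairs give 1 value by construction, so pairing could not be judged there. For Coptidis against Zizyphi that value was 0.0745, 0.0517 and 0.0772 at the low, medium and high step. The block moved no count of calls by over 1.5 times except beside offsets. The cause of the shifts below was not tested, except that separate fits and left-out libraries use fewer samples.

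Counts of called genes that moved were as follows. Separate fits gave 250 over the other medium and low doses, 16 for Zizyphi high, 31 Citri high, 41 Cimicifugae high, 7 Bupleuri high, 1 Bupleuri low, 40 Aconiti high and 33 Yijung-tang high against vehicle; high against low, 2 for Citri, 10 Cimicifugae, 8 Bupleuri, 18 Aconiti and 20 Yijung-tang; and 4 for Coptidis low against Zizyphi low. Offsets, then offsets with the block, gave 1 and 1 for Zizyphi high, 14 and 16 Bupleuri low, 2 and 2 Cimicifugae high against low, 13 and 14 Aconiti, 8 and 9 Yijung-tang, and 13 and 14 for the low Coptidis against Zizyphi step. Without the filter there were 7 for Zizyphi high, 0 Citri and 2 Yijung-tang high against low, 14 at the low Coptidis against Zizyphi step and 18 for Bupleuri minus Aconiti. Total-count scaling gave 56 and 32 at the medium and low Coptidis against Zizyphi steps and 19 for Bupleuri minus Aconiti. rRNA removal gave 5 and DESeq2 7 for Zizyphi high; RLE gave 1 and DESeq2 2 for Yijung-tang high against low. The summed level in unscaled CPM was 0.765 of vehicle at the Coptidis high dose and 0.897 at the low dose.

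Leaving out 1 library gave, against vehicle, 15 to 44 calls at Coptidis low, 20 to 48 medium, 45 to 61 high, 0 to 16 Zizyphi high, 8 to 25 Citri, 10 to 31 Cimicifugae, 12 to 38 Bupleuri, 12 to 46 Bupleuri low, 10 to 34 Aconiti, 8 to 22 Yijung-tang and 31 to 202 over the other medium and low doses. High against low it gave 35 to 46 for Coptidis, 0 Zizyphi, 0 to 2 Citri, 0 to 5 Cimicifugae, 13 to 63 Bupleuri, 1 to 13 Aconiti and 0 to 7 Yijung-tang; Coptidis against Zizyphi 0 to 22, 23 to 49 and 40 to 58 from low to high; differences 26 to 47 for Coptidis minus Zizyphi, 0 for Cimicifugae minus Citri and 4 to 29 for Bupleuri minus Aconiti. Ratios to vehicle ran 0.930 to 1.02, 0.843 to 0.940 and 0.807 to 0.848 for the Coptidis low, medium and high sums, 0.992 to 1.18 Bupleuri low, 1.0596 to 1.0741 Yijung-tang high, and 4.58 to 4.67, 4.05 to 4.55 and 2.14 to 2.25 for the Coptidis rRNA share in the same order.

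Split at 1458.5 bases of transcript, 22 of 39 shorter and 22 of 39 longer genes were lower at the Coptidis high dose, and 1 shorter and 6 longer genes were higher. With GC and length offsets 24 shorter and 22 longer genes were lower, and 4 and 8 were higher.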

Other observations

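The Banhasasim-tang low-dose library, 1 of the 3 single libraries of that formula, combined the lowest mitochondrial rRNA share of all 60 libraries (0.485%) with levels of single genes far from vehicle. It also held the fewest counts of all libraries, 18015552. MRPL12 stood at 308 CPM and MRPL23 at 147 CPM there, while MRPL1 stood at 10.5 CPM and MRPS6 at 6.84 CPM. The MRPL1 level was not far below that of the Coptidis high-dose libraries. How many of all genes lay as far from vehicle in the Banhasasim-tang low-dose library was not counted.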
